A study of Cucumis sativus with 12 samples.

Results

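The 4 genes described here encode enzymes that take part in the turnover of membrane glycerolipids, and were measured in cucumber (Cucumis sativus) leaves. They are the glycerophosphodiester phosphodiesterases GDPD1 (CsaV3_3G026730) and GDPD6 (CsaV3_1G006010), phospholipase D p2 (CsaV3_2G006790) and monogalactosyldiacylglycerol synthase 2 (CsaV3_2G003280). They were chosen by their identifiers, with their levels over 4 durations of cold already known, so that their own values are a description and carry no test. They are 4 of 24317 genes in the deposited table, and all 4 were among the 16432 genes with enough signal to be tested, so tests are given only for other genes of the same pathways.

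Phospholipase D cuts a phospholipid such as phosphatidylcholine into phosphatidic acid and a free headgroup. Glycerophosphodiester phosphodiesterases act on the glycerophosphodiesters that remain when both fatty acids have been taken off a phospholipid, and release glycerol-3-phosphate. Phosphatidic acid that has lost its phosphate is diacylglycerol, to which monogalactosyldiacylglycerol synthases add galactose, giving the main lipid of the photosynthetic membranes of the chloroplast. In Arabidopsis this route is known from phosphate shortage, when galactolipids and sulfolipids take the place of phospholipids, and the Arabidopsis genes GDPD1, MGD2 and PLD zeta 2 (also called PLDP2) are among those that respond to it.

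Cucumber seedlings, for which the labels give no cultivar or genotype, were sprayed with chitosan oligosaccharide at 50 mg/L and kept for 24 h at 28 °C by day and 18 °C by night under a 12 h photoperiod. They were then moved to 12 °C by day and 6 °C by night for 3, 12 or 24 h, or sampled with 0 h of cold, and expanded leaves numbers 2 and 3 were taken for RNA sequencing. Each of the 4 durations has 3 libraries, 12 in all, and every library comes from a sprayed seedling, so the spray itself is compared with nothing here; the water-sprayed groups named in the protocol are not analysed here. Time in the cold moves together with time since the spray and, since the labels do not state the hour of sampling, with time of day, and these cannot be told apart. The labels do not say that libraries of 1 duration came from separate plants, so the errors measure only the spread between libraries, which may be technical.

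The libraries held 62.7 to 81.6 M count units (M, 10 to the power of 6), about 16.9 to 22.0 M fragments. Libraries of the 24 h group differed from each other more than those of the other groups: the chi-square statistic per degree of freedom between 2 libraries was 22.3 to 60.3 within the 24 h group, against 4.0 to 10.6 within the others. Of 19 leaf mesophyll marker genes (small subunits of Rubisco and chlorophyll-binding proteins) all 19 were tested, and their summed level was 21924 to 49966 FPKM, so that the defining markers of the labelled tissue were present. FPKM are fragments per kilobase of transcript, scaled to the library's total, a scale on which genes of different length can be set side by side.

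GDPD1 lies on chromosome 3 (22977813 to 22980952, plus strand), with no other gene within 2 kb. It had 5.42, 6.03 and 4.56 FPKM in the libraries with 0 h of cold, 348, 393 and 354 FPKM at 3 h, 12.5, 13.3 and 17.4 FPKM at 12 h, and 88.9, 162 and 246 FPKM at 24 h. No 2 durations overlapped, and the gene was high at 3 h, low at 12 h and high again at 24 h. Its mean was 5.34 ± 0.741 FPKM at 0 h, 365 ± 24.6 at 3 h, 14.4 ± 2.64 at 12 h and 166 ± 78.4 at 24 h (SD, n = 3 libraries each). The gene stood at place 10500 of all 24317 genes by mean level at 0 h, at place 188 at 3 h, 6162 at 12 h and 576 at 24 h. The fitted log2 fold change was 6.09 ± 0.34 for 3 h against 0 h, 1.48 ± 0.28 for 12 h against 0 h and 5.01 ± 0.32 for 24 h against 0 h (SE). All 3 of these differences share the same 0 h libraries. Between neighbouring durations it was -4.61 ± 0.32 for 12 h against 3 h and 3.53 ± 0.30 for 24 h against 12 h.

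GDPD6, a second enzyme of this kind, lies on chromosome 1 (3860780 to 3865989, minus strand), 743 bp from a presenilin-like gene and 1118 bp from a ninja-family gene on the same strand. It was the flattest of the 4. Its level was 18.8, 17.9 and 17.0 FPKM at 0 h, 28.4, 36.4 and 32.4 FPKM at 3 h, 12.0, 12.1 and 12.7 FPKM at 12 h, and 9.97, 9.66 and 12.5 FPKM at 24 h. All libraries at 3 h were above all libraries at 0 h, all libraries at 12 and 24 h were below them, and the 12 h and 24 h libraries overlapped. Its mean was 17.9 ± 0.884 FPKM at 0 h, 32.4 ± 4.01 at 3 h, 12.3 ± 0.369 at 12 h and 10.7 ± 1.56 at 24 h (SD, n = 3 libraries each). The log2 fold change was 0.86 ± 0.11 for 3 h against 0 h, -0.49 ± 0.11 for 12 h against 0 h and -0.68 ± 0.11 for 24 h against 0 h (SE). It was -1.34 ± 0.11 for 12 h against 3 h and -0.20 ± 0.11 for 24 h against 12 h, where the value was -0.13 without 24 h library 2 and -0.32 without 24 h library 3.

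Phospholipase D p2 lies on chromosome 2 (3341776 to 3351658, plus strand), between an uncharacterized gene 1294 bp away and the gene of the CST complex subunit TEN1, which helps to maintain chromosome ends, 876 bp away. It had 3.32, 3.10 and 3.21 FPKM at 0 h, 91.1, 114 and 96.8 FPKM at 3 h, 15.2, 15.6 and 15.0 FPKM at 12 h, and 2.74, 4.73 and 5.64 FPKM at 24 h. The 3 h libraries stood highest and the 12 h libraries next, and the 24 h libraries overlapped those at 0 h. Its mean was 3.21 ± 0.112 FPKM at 0 h, 101 ± 11.7 at 3 h, 15.3 ± 0.296 at 12 h and 4.37 ± 1.49 at 24 h (SD, n = 3 libraries each). The log2 fold change was 4.97 ± 0.22 for 3 h against 0 h, 2.30 ± 0.20 for 12 h against 0 h and 0.50 ± 0.19 for 24 h against 0 h (SE). It was -2.66 ± 0.20 for 12 h against 3 h and -1.80 ± 0.19 for 24 h against 12 h. The 24 h value ran between 0.28 and 0.75 as each library was left out in turn.

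Monogalactosyldiacylglycerol synthase 2, the galactolipid enzyme of the 4, lies on chromosome 2 as well (1567484 to 1571579, minus strand). It had 9.19, 9.53 and 12.1 FPKM at 0 h, 208, 232 and 217 FPKM at 3 h, 20.5, 19.8 and 22.1 FPKM at 12 h, and 11.7, 16.2 and 21.4 FPKM at 24 h. The 3 h libraries stood far above the rest, the 12 h libraries were all above the 0 h libraries, and the 24 h libraries reached into the range of both. Its mean was 10.3 ± 1.61 FPKM at 0 h, 219 ± 12.2 at 3 h, 20.8 ± 1.18 at 12 h and 16.4 ± 4.87 at 24 h (SD, n = 3 libraries each). The log2 fold change was 4.41 ± 0.20 for 3 h against 0 h, 1.07 ± 0.18 for 12 h against 0 h and 0.73 ± 0.18 for 24 h against 0 h (SE). It was -3.34 ± 0.19 for 12 h against 3 h and -0.34 ± 0.17 for 24 h against 12 h, where the value was -0.15 without 24 h library 1 and -0.58 without 24 h library 3. A hypothetical gene on the opposite strand (CsaV3_2G003290) overlaps it over 339 bp, and the strand setting of the counting is not given. That gene was listed at 0 in all libraries but those at 3 h, where its highest level was 0.435 FPKM.

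**Figure D1:**
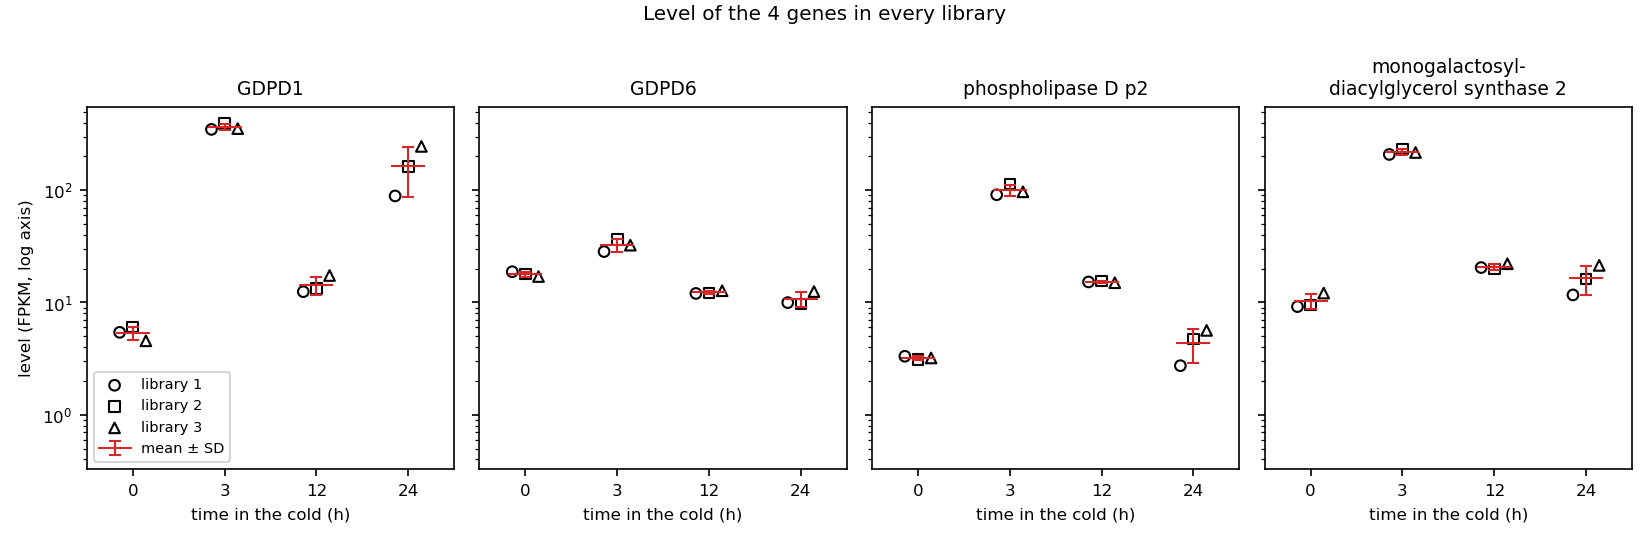
Level of each of the 4 genes in every library (FPKM, log axis) against time in the cold in h, one panel per gene; black symbols are the 3 libraries of a duration, and red bars their mean ± SD. All 4 genes stand highest at 3 h, GDPD1 is high again at 24 h (88.9 to 246 FPKM), and the 24 h libraries lie farther apart than those of other durations for GDPD1, phospholipase D p2 and monogalactosyldiacylglycerol synthase 2.

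The 4 genes shared a peak at 3 h and differed in what followed. At 12 h GDPD1 was at 3.94% of its own 3 h mean, monogalactosyldiacylglycerol synthase 2 at 9.50%, phospholipase D p2 at 15.2% and GDPD6 at 37.9%. At 24 h GDPD1 was at 45.4% of its 3 h mean, GDPD6 at 33.1%, monogalactosyldiacylglycerol synthase 2 at 7.49% and phospholipase D p2 at 4.35%. GDPD1 thus had the smallest share of the 4 at 12 h and the largest at 24 h, where phospholipase D p2 had the smallest.

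The order of the 4 genes by level also changed with the duration of cold. At 0 h GDPD6 stood first, followed by monogalactosyldiacylglycerol synthase 2, GDPD1 and phospholipase D p2, and no neighbours in that order overlapped. At 3 h the order was GDPD1, monogalactosyldiacylglycerol synthase 2, phospholipase D p2 and GDPD6, again with no overlap. At 12 h monogalactosyldiacylglycerol synthase 2 was above the others, while phospholipase D p2 overlapped GDPD1 and GDPD1 overlapped GDPD6. At 24 h GDPD1 stood alone at the top and phospholipase D p2 alone at the bottom, and the middle pair overlapped. In RNA from whole leaves, fewer cells of a type and less RNA per cell cannot be told apart for any of these differences.

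The spread between the 24 h libraries had the same order in 3 of the 4 genes: library 1 was lowest and library 3 highest for GDPD1, phospholipase D p2 and monogalactosyldiacylglycerol synthase 2. The highest 24 h library of GDPD1 had 2.76 times the level of the lowest, and the ratio was 2.06 for phospholipase D p2, 1.83 for monogalactosyldiacylglycerol synthase 2 and 1.29 for GDPD6. Among 10654 genes averaging 5 FPKM or more at 24 h, a set that leaves out phospholipase D p2 (4.37 FPKM), the median ratio was 1.25. Of these 10654 genes, 2.46%, 6.09% and 9.55% had a ratio at least as large as those of the first 3 genes. The order itself was common, since 31.0% of those genes had library 1 lowest and library 3 highest. Phloem markers moved in part with that spread: the summed level of 26 phloem genes was 545, 1326 and 1399 FPKM in 24 h libraries 1, 2 and 3, against 318 to 604 FPKM in the libraries of the other durations. Of the 15 phloem genes tested, 8 were higher and 6 lower at 24 h than at 0 h, and 2 of the 26, a PHLOEM PROTEIN 2-LIKE A9-like gene and a sucrose transporter 1 gene, were at 0 in every library. The pattern behind that list also took 2 HAPLESS 2 genes. Markers of other cell types also differed between durations. The 19 mesophyll genes summed to 21924 to 23506 FPKM at 0 h, 34596 to 35388 at 3 h, 45877 to 49966 at 12 h and 23528 to 26126 at 24 h. Of the 19, 17 were higher and none lower than at 0 h at 3 h and at 12 h, and 12 were higher and 7 lower at 24 h. The 29 guard cell genes summed to 271 to 279 FPKM at 0 h, 217 to 240 at 3 h, 169 to 180 at 12 h and 101 to 129 at 24 h. A pair of ASPARTIC PROTEASE IN GUARD CELL 1-like genes and an EPIDERMAL PATTERNING FACTOR-like protein 8 gene were at 0 throughout. In 24 h libraries 1, 2 and 3 that sum was 129, 110 and 101 FPKM, the reverse of the order of those 3 genes. The 27 epidermis genes summed to 336 to 438 FPKM at 0 h, 394 to 410 at 3 h, 258 to 261 at 12 h and 217 to 238 at 24 h, and a 3-ketoacyl-CoA synthase 21-like gene among them was at 0. The 38 genes of the root list summed to 260 to 267 FPKM at 0 h, 329 to 345 at 3 h, 319 to 334 at 12 h and 543 to 581 at 24 h, and 3 COBRA-like protein 10 genes among them were at 0. At 24 h against 0 h 3 of 15 tested guard cell genes were higher and 8 lower (20.0% and 53.3%). Of 19 epidermis genes 7 were higher and 7 lower (36.8% and 36.8%), and of 26 root genes 9 were higher and 11 lower (34.6% and 42.3%). Of all tested genes 29.4%, 34.4% and 36.2% were higher and 28.3%, 33% and 37.9% lower at 3, 12 and 24 h. The epidermis and root shares at 24 h were thus near those of all genes. The phloem shares at 24 h were 53.3% and 40.0%. The part of these cell types in the levels of the 4 genes was not tested.

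GDPD1 made up most of the GDPD transcript level at 3 h and 24 h. The table holds 7 genes described as GDPD or GDPD-like, whose summed level was 56.5 ± 2.01 FPKM at 0 h, 440 ± 28.9 at 3 h, 59.0 ± 2.98 at 12 h and 220 ± 78.0 at 24 h (SD, n = 3 libraries each). The share held by GDPD1 was 9.47 ± 1.63% at 0 h, 82.9 ± 0.233% at 3 h, 24.3 ± 3.22% at 12 h and 73.0 ± 10.4% at 24 h. The share of GDPD6 was 31.7 ± 2.40% at 0 h, 7.35 ± 0.500% at 3 h, 20.9 ± 0.466% at 12 h and 5.19 ± 1.49% at 24 h. Both shares are taken of the same sum, so a larger level of GDPD1 lowers the share of GDPD6. The level of GDPD6 itself was higher at 3 h (32.4 FPKM) than at 0 h (17.9 FPKM). The other 6 GDPD genes together had 51.2 ± 2.75 FPKM at 0 h, 75.2 ± 4.45 at 3 h, 44.6 ± 0.810 at 12 h and 54.1 ± 1.84 at 24 h.

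Of the 5 GDPD genes outside the chosen 4, 3 passed the filter. At 3 h against 0 h, 2 were higher and 1 was lower, where 57.7% of all tested genes were called (29.4% higher and 28.3% lower, edgeR adjusted p below 0.05). A second gene described as GDPD1 (CsaV3_4G002900) had 18.5 ± 1.24 FPKM at 3 h against 7.13 ± 1.57 FPKM at 0 h (SD, n = 3 each), a log2 fold change of 1.38 ± 0.15 (edgeR adjusted p = 9.79e-06). It was not called at 12 h (log2 fold change -0.28) or at 24 h (0.00, edgeR adjusted p = 0.995), although its 12 h difference passed when 0 h library 1 was left out (-0.39, edgeR adjusted p = 0.0425). At 24 h it had 6.87 ± 0.165 FPKM, within the range of its 0 h libraries. GDPD4 was lower at 3 h, with 8.06 ± 0.879 against 12.2 ± 1.38 FPKM at 0 h (log2 fold change -0.60 ± 0.17, edgeR adjusted p = 0.00862).

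GDPDL4, a GDPD-like protein, was 1 of 3 genes called at 12 h, where 67.4% of all tested genes were called, and 1 of 3 at 24 h, where 74.2% were. It had 25.5 ± 1.45 FPKM at 24 h against 14.0 ± 0.671 FPKM at 0 h (log2 fold change 0.92 ± 0.07, edgeR adjusted p = 1.54e-07). Its differences at 3 h (0.21 ± 0.07) and 12 h (0.21 ± 0.07) were small and hung on single libraries. The 3 h call ended without 0 h library 1, 0 h library 2 or 3 h library 3 (edgeR adjusted p = 0.0810, 0.0556 and 0.0854). The 12 h call ended without 0 h library 1, 0 h library 2 or 12 h library 2 (edgeR adjusted p = 0.0755, 0.0511 and 0.0620), under scaling to library totals (0.0558) and with limma (0.0700). GDPD4 was not called at 24 h (log2 fold change -0.21), but was without 24 h library 1 (-0.41, edgeR adjusted p = 0.0230). The GDPDL2-like gene (CsaV3_4G028860) was listed at 0 in every library, and the GDPDL6-like gene did not exceed 1.20 FPKM in any.

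Phospholipase D p2 was a minor member of its family at 0 h and the main one at 3 h. The 9 phospholipase D genes together had 67.0 ± 0.352 FPKM at 0 h, 157 ± 14.9 at 3 h, 72.9 ± 1.86 at 12 h and 83.5 ± 2.07 at 24 h (SD, n = 3 libraries each). The share of phospholipase D p2 was 4.78 ± 0.185% at 0 h, 64.1 ± 1.34% at 3 h, 21.0 ± 0.561% at 12 h and 5.26 ± 1.88% at 24 h. The other 8 genes together had 63.8 ± 0.440 FPKM at 0 h, 56.2 ± 3.18 at 3 h, 57.6 ± 1.80 at 12 h and 79.1 ± 3.50 at 24 h. At 3 h the family sum stood above its 0 h value while the sum of the other 8 genes did not, and at 24 h both did.

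**Figure D2:**
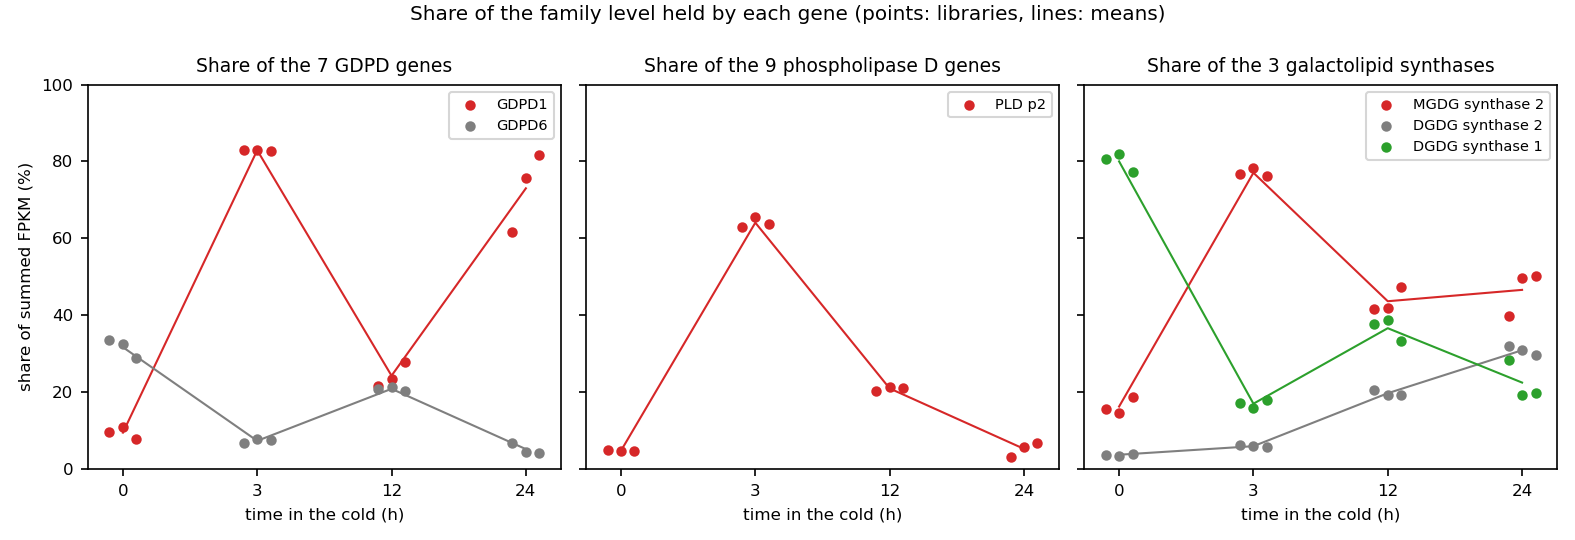
Share of the summed level of a gene family (% of FPKM) held by single genes against time in the cold in h; points are libraries and lines join the means of 3 libraries. GDPD1 holds 82.9% of the GDPD level at 3 h and 73.0% at 24 h, phospholipase D p2 64.1% of its family at 3 h and 21.0% or less at the other durations, and monogalactosyldiacylglycerol synthase 2 goes above digalactosyldiacylglycerol synthase 1 from 3 h on.

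Among the other phospholipase D genes, the largest change was that of phospholipase D beta 1-like (CsaV3_3G003480), of a calcium-dependent class, at 24 h. It had 24.5 ± 1.75 FPKM at 24 h against 4.45 ± 0.858 FPKM at 0 h (log2 fold change 2.52 ± 0.13, edgeR adjusted p = 4.77e-09), and was also higher at 3 h (0.53 ± 0.12) and 12 h (0.85 ± 0.12). Phospholipase D alpha 1, the most abundant member at 0 h, was lower at all 3 cold durations. It had 13.1 ± 0.619 FPKM at 3 h, 15.3 ± 0.938 at 12 h and 15.8 ± 3.31 at 24 h, against 28.7 ± 1.82 FPKM at 0 h, with log2 fold changes of -1.14 ± 0.12, -0.86 ± 0.12 and -0.81 ± 0.12 (edgeR adjusted p = 9.42e-06, 5.29e-05 and 6.71e-05). Neither gene had its highest level at 3 h, where phospholipase D p2 had its own.

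The phospholipase D pattern took 10 genes, among them a patatin-like phospholipase domain gene, an enzyme of another family, and 7 of the 9 outside the chosen 4 were tested. At 3 h 5 were higher and 1 lower, at 12 h 4 were higher and 1 lower, and at 24 h 4 were higher and 2 lower. Of all tested genes 29.4%, 34.4% and 36.2% were higher and 28.3%, 33% and 37.9% lower at these durations. The counts are 71.4%, 57.1% and 57.1% of the 7 higher and 14.3%, 14.3% and 28.6% lower. The patatin-like gene was higher at all 3, with a log2 fold change of 1.08 ± 0.07 at 3 h. Phospholipase D gamma 1-like was higher by 0.32 ± 0.08 at 3 h, 0.29 ± 0.08 at 12 h and 0.71 ± 0.08 at 24 h on the log2 scale. Phospholipase D delta, known in Arabidopsis for a role in freezing tolerance, was higher by 0.29 ± 0.09, 0.34 ± 0.09 and 0.28 ± 0.09, but its 3 h and 24 h calls ended without 0 h library 1 (edgeR adjusted p = 0.0670 and 0.0603). Phospholipase D delta-like (CsaV3_2G024470) was higher at 3 h alone of the 3 durations, by 0.87 ± 0.22. Phospholipase D Y-like was lower at 24 h (-0.40 ± 0.14, edgeR adjusted p = 0.0226), a call that ended without 0 h library 3 or 24 h library 2 (0.104 and 0.0947) and in a fit of those 2 durations alone (0.0828). It was not called at 12 h (-0.30), but was without 24 h library 2 or 24 h library 3 (0.0428 and 0.0447), under scaling to library totals, with the replicate block, with limma and in a fit of those 2 durations alone (0.0420, 0.0490, 0.0416 and 0.0306). The untested members, phospholipase D epsilon and an alpha 1-like gene, stayed below 1 FPKM.

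Monogalactosyldiacylglycerol synthase 2 and the 2 digalactosyldiacylglycerol synthases, which add a second galactose, are the 3 genes found by their descriptions as galactolipid synthases. Of the 24317 genes, 10054 had no informative description, so further synthases may be missing from the sums and shares below. Their summed level was 63.1 ± 3.41 FPKM at 0 h, 284 ± 12.4 at 3 h, 47.7 ± 1.18 at 12 h and 34.8 ± 6.89 at 24 h (SD, n = 3 libraries each). Monogalactosyldiacylglycerol synthase 2 held 16.3 ± 2.17% of it at 0 h, 77.0 ± 1.16% at 3 h, 43.6 ± 3.15% at 12 h and 46.6 ± 5.88% at 24 h. The share of digalactosyldiacylglycerol synthase 1 was 80.0 ± 2.41%, 17.0 ± 1.14%, 36.6 ± 2.88% and 22.5 ± 5.04% at the same durations.

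The 2 digalactosyldiacylglycerol synthases moved in opposite directions. Digalactosyldiacylglycerol synthase 2 (CsaV3_3G009130), in Arabidopsis the form that responds to phosphate shortage, had 2.36 ± 0.191 FPKM at 0 h, 16.9 ± 0.443 at 3 h, 9.42 ± 0.601 at 12 h and 10.7 ± 1.74 at 24 h. Its log2 fold change against 0 h was 2.84 ± 0.12 at 3 h, 2.05 ± 0.11 at 12 h and 2.24 ± 0.12 at 24 h (edgeR adjusted p = 5.90e-09, 1.89e-08 and 4.94e-09). Digalactosyldiacylglycerol synthase 1 (CsaV3_6G041120), the main form in Arabidopsis leaves, had 50.5 ± 2.92 FPKM at 0 h, 48.3 ± 2.66 at 3 h, 17.5 ± 1.62 at 12 h and 7.68 ± 1.22 at 24 h. It was not called at 3 h (log2 fold change -0.07 ± 0.11, edgeR adjusted p = 0.632) and was lower at 12 h (-1.48 ± 0.11) and 24 h (-2.66 ± 0.12, edgeR adjusted p = 2.47e-07 and 1.40e-09).

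The galactolipid pattern also took 8 genes described as palmitoyl-monogalactosyldiacylglycerol delta-7 desaturase, which put a double bond into the fatty acid of the galactolipid. Only 2 of these 8 passed the filter. CsaV3_4G001630 had 175 ± 20.8 FPKM at 3 h, 80.6 ± 3.50 at 12 h and 32.0 ± 2.37 at 24 h, against 267 ± 14.8 FPKM at 0 h (log2 fold changes -0.61 ± 0.09, -1.67 ± 0.09 and -3.0 ± 0.10, edgeR adjusted p = 0.000144, 2.01e-08 and 1.54e-10). CsaV3_4G001650, near 1 FPKM, was not called at any of the 3. Its 12 h log2 fold change of -1.12 ± 0.50 passed without 0 h library 3, 3 h library 1 or 3 h library 2 (edgeR adjusted p = 0.0462, 0.0461 and 0.0127). It also passed with DESeq2 (-1.13, adjusted p = 0.0475) and in an edgeR fit of those 2 durations alone (-1.13, adjusted p = 0.0172). Since 6 of the 8 lie close together on chromosome 4, reads may be shared between copies, and their single values are uncertain. UDP-sulfoquinovose synthase, which makes the headgroup of the plastid sulfolipid, was higher at all 3 durations. It had 31.1 ± 1.70, 22.5 ± 1.04 and 27.2 ± 1.62 FPKM at 3, 12 and 24 h, against 10.2 ± 0.549 FPKM at 0 h (log2 fold changes 1.60 ± 0.07, 1.19 ± 0.07 and 1.46 ± 0.07, edgeR adjusted p = 1.23e-08, 4.50e-08 and 4.53e-09), and overlaps a gene on the opposite strand.

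**Figure D3:**
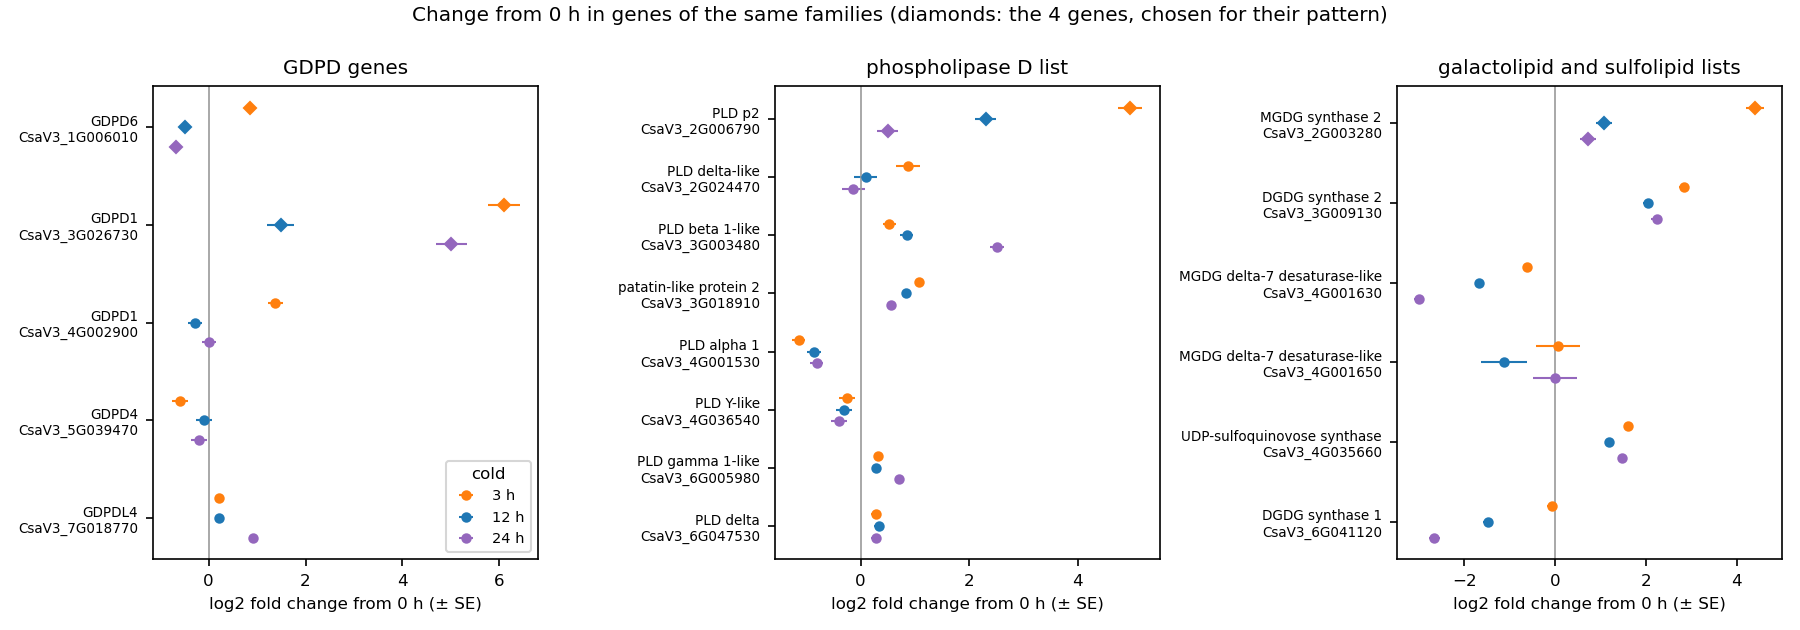
Log2 fold change from 0 h (± SE, edgeR fit over 12 libraries) of the tested genes of the GDPD, phospholipase D, galactolipid and sulfolipid lists after 3, 12 and 24 h of cold, with diamonds for the 4 genes chosen for their pattern and circles for the others. GDPD1, phospholipase D p2 and monogalactosyldiacylglycerol synthase 2 lie farthest to the right at 3 h (6.09, 4.97 and 4.41), while digalactosyldiacylglycerol synthase 1 and a delta-7 desaturase lie at -2.66 and -3.0 at 24 h.

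Across all 11 lists of lipid genes, which hold 133 genes with the 4 and 129 without them, 96 of the 129 were tested. These lists, too, were written with earlier results of these data known. At 3 h 41 of these 96 were higher (42.7%) and 24 lower (25.0%) than at 0 h, where 29.4% and 28.3% of all tested genes were, with a median log2 fold change of 0.25, against 0.00 over all tested genes. At 12 h 43 were higher (44.8%) and 32 lower (33.3%), where 34.4% and 33% of all tested genes were, and at 24 h 36 were higher (37.5%) and 35 lower (36.5%), where 36.2% and 37.9% were. At 3 h and 12 h the share higher stood above that of all tested genes, and at 24 h both shares were near it. At 12 h against 3 h 24 were higher and 41 lower (25.0% and 42.7%), where 55.5% of all tested genes were called, 27.9% higher and 27.6% lower. At 24 h against 12 h 23 were higher and 22 lower (24.0% and 22.9%), where 51.9% were called, 24.5% higher and 27.4% lower.

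**Figure D4:**
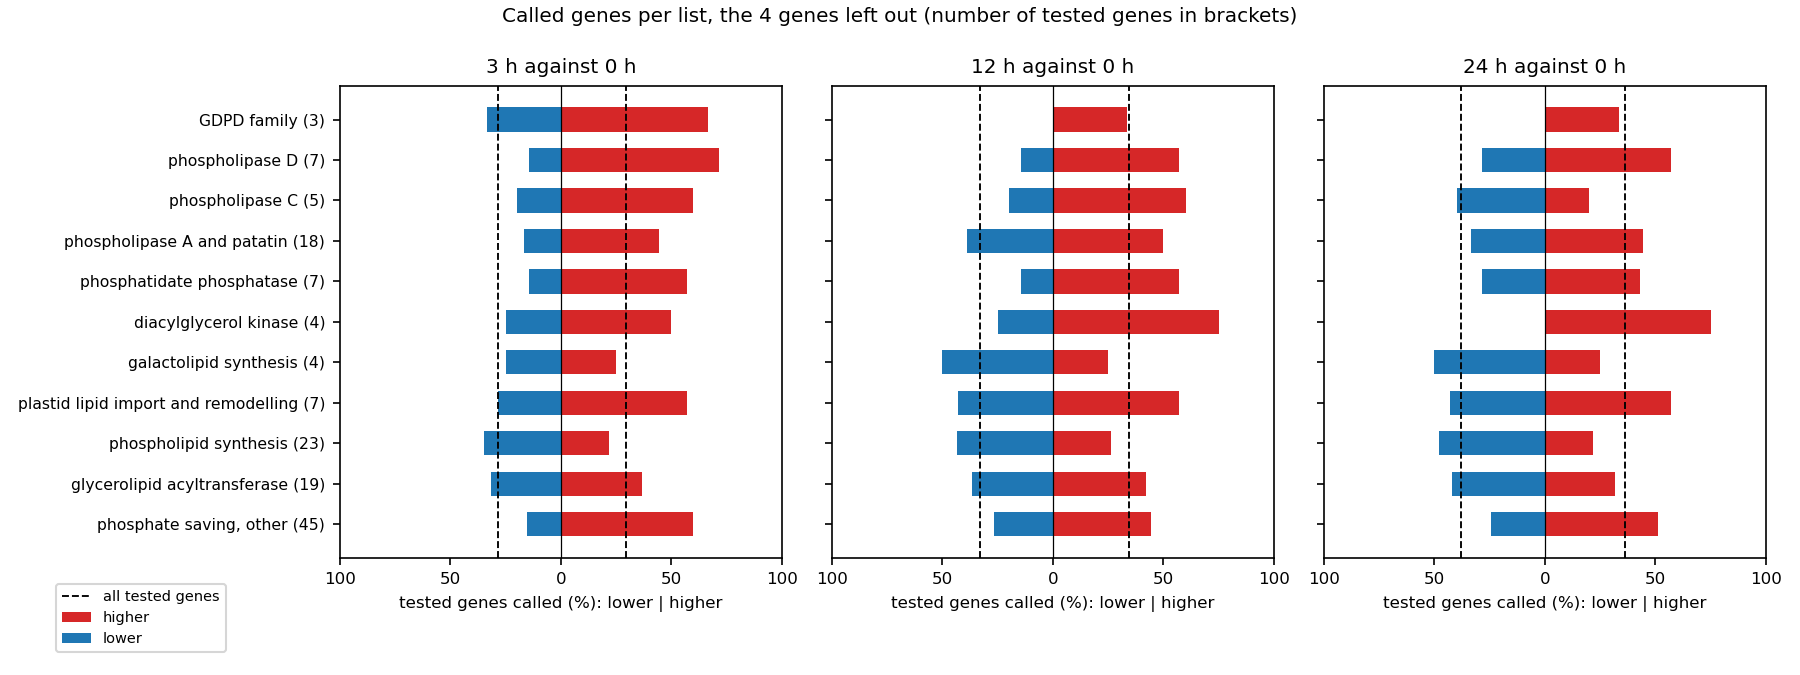
Percent of the tested genes of each list called higher (red, to the right) or lower (blue, to the left) than at 0 h after 3, 12 and 24 h of cold, with the 4 genes left out, the number of tested genes in brackets, and dashed lines for all tested genes. At 3 h the phosphate-saving list reaches 60.0% higher against 29.4% of all tested genes. In the phospholipid synthesis list 34.8%, 43.5% and 47.8% are lower and 21.7%, 26.1% and 21.7% higher at 3, 12 and 24 h. Of all tested genes 28.3%, 33% and 37.9% are lower and 29.4%, 34.4% and 36.2% higher. All lists were written with earlier results of these data known.

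Enzymes that carry phosphatidic acid on to diacylglycerol, or back, were called higher more than lower at 3 h and 12 h, in lists of 7 and 4 tested genes. With so few genes these counts are a description. All tested genes were called about evenly (29.4% higher and 28.3% lower at 3 h, 34.4% and 33% at 12 h). Of 7 phosphatidate phosphatases tested, 4 were higher and 1 lower at 3 h and at 12 h, and 3 were higher and 2 lower at 24 h. The share called was 71.4% at each duration, against 57.7%, 67.4% and 74.2% of all tested genes. It was thus near that of all genes at 12 h and 24 h. Lipid phosphate phosphatase 2 (CsaV3_5G034660), which takes the phosphate off lipid phosphates, had 11.3 ± 0.608, 6.57 ± 0.783 and 17.2 ± 1.40 FPKM at 3, 12 and 24 h against 3.21 ± 0.743 FPKM at 0 h (log2 fold changes 1.81 ± 0.19, 1.08 ± 0.19 and 2.48 ± 0.19, edgeR adjusted p = 7.10e-06, 0.000261 and 1.94e-07). Of 4 diacylglycerol kinases, which run the reaction in the other direction, 2 were higher and 1 lower at 3 h. At 12 h 3 were higher and 1 lower, and at 24 h 3 were higher and none lower. Called were 75.0%, 100% and 75.0% of the 4, and the share at 24 h was near that of all genes. At 24 h 36.2% of all tested genes were higher and 37.9% lower. Diacylglycerol kinase 5 (CsaV3_3G005860) had 38.5 ± 3.59, 24.4 ± 3.50 and 52.6 ± 10.9 FPKM against 14.0 ± 1.77 FPKM at 0 h (log2 fold changes 1.46 ± 0.15, 0.86 ± 0.15 and 1.97 ± 0.16, edgeR adjusted p = 7.79e-06, 0.000314 and 2.31e-07). Both of these genes, like GDPD1, were lower at 12 h than at 3 h and 24 h in their means.

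Other phospholipases changed in both directions. Of 5 phospholipase C genes tested, 3 were higher and 1 lower at 3 h and at 12 h, and 1 was higher and 2 lower at 24 h. Called were 80.0%, 80.0% and 60.0%, where 57.7%, 67.4% and 74.2% of all tested genes were. Non-specific phospholipase C6, which cuts phospholipids to diacylglycerol, had 62.8 ± 3.02 FPKM at 3 h against 22.3 ± 1.51 FPKM at 0 h (log2 fold change 1.49 ± 0.13, edgeR adjusted p = 1.71e-06), and overlaps a gene on the opposite strand. Non-specific phospholipase C1 had 23.7 ± 1.84 FPKM at 12 h against 48.2 ± 0.506 FPKM at 0 h (-0.97 ± 0.10, edgeR adjusted p = 3.14e-06). Non-specific phospholipase C2 had 5.75 ± 0.799 FPKM at 24 h against 2.08 ± 0.115 FPKM at 0 h (1.52 ± 0.22, edgeR adjusted p = 5.33e-05). With 1 library left out, the log2 fold change of C6 ran from -0.86 to -0.54 at 24 h. That of C1 ran from -1.12 to -1.06 at 3 h and from -0.48 to -0.25 at 24 h. Of 18 phospholipase A and patatin genes, which release fatty acids from glycerolipids, 8, 9 and 8 were higher and 3, 7 and 6 lower at 3, 12 and 24 h. Called were thus 61.1%, 88.9% and 77.8% of the 18, and the shares at 3 h and 24 h were near those of all genes. Patatin-like protein 3 (CsaV3_6G052720) had 28.6 ± 2.15 FPKM at 3 h and 92.7 ± 15.0 FPKM at 24 h, against 4.56 ± 1.42 FPKM at 0 h (log2 fold changes 2.65 ± 0.19 and 4.40 ± 0.20, edgeR adjusted p = 2.94e-07 and 1.78e-09). Phospholipase A1-Igamma1 (CsaV3_1G036900), a chloroplast enzyme by its description, had 10.0 ± 1.07 FPKM at 12 h against 1.12 ± 0.221 FPKM at 0 h (3.20 ± 0.19, edgeR adjusted p = 2.77e-08). With 1 library left out, its log2 fold change ran from 1.82 to 2.07 at 3 h and from 3.70 to 3.99 at 24 h.

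Genes that bring lipid into the plastid or rebuild galactolipids there were called in both directions. Of 7 tested, 4 were higher and 2 lower at 3 h, and 4 were higher and 3 lower at 12 h and at 24 h. All tested genes were called in both directions as well, with 29.4% higher and 28.3% lower at 3 h, 34.4% and 33% at 12 h, and 36.2% and 37.9% at 24 h. A pair of genes is described as TRIGALACTOSYLDIACYLGLYCEROL 4, part of the lipid import route in Arabidopsis, and its members went opposite ways: CsaV3_6G000270 had 20.2 ± 1.47 FPKM at 3 h and 21.1 ± 1.63 FPKM at 24 h against 53.3 ± 1.83 FPKM at 0 h (log2 fold changes -1.40 ± 0.08 and -1.28 ± 0.08, edgeR adjusted p = 5.36e-08 and 2.36e-08). CsaV3_3G010430 had 29.4 ± 0.775 FPKM at 12 h against 12.2 ± 0.466 FPKM at 0 h (1.32 ± 0.14, edgeR adjusted p = 4.48e-06), and its 3 h call (0.44) ended without 0 h library 3 or 3 h library 3 (edgeR adjusted p = 0.0586 and 0.0802). The more abundant of the 2 genes described as SFR2, which in Arabidopsis rebuilds galactolipids in freezing, was named after its values were seen (CsaV3_UNG230070). It had 12.7 FPKM at 24 h against 28.0 FPKM at 0 h, a log2 fold change of -1.08. This gene falls outside the naming rule, and the dependence of its value on the processing was not examined. Its levels at 3 and 12 h and those of the other SFR2 gene are not described here.

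Phospholipid synthesis genes were called lower more than higher. Of 23 tested, 5, 6 and 5 were higher and 8, 10 and 11 lower at 3, 12 and 24 h, with medians of 0.18, -0.35 and -0.24 on the log2 scale, so that at 3 h the median and the balance of calls differ in sign. Lower were 34.8%, 43.5% and 47.8% of the 23, where 28.3%, 33% and 37.9% of all tested genes were. Higher were 21.7%, 26.1% and 21.7%, where 29.4%, 34.4% and 36.2% were. At 3 h both shares were within 10 percentage points of those of all tested genes. CDP-diacylglycerol--serine O-phosphatidyltransferase 1-like (CsaV3_5G028680), which makes phosphatidylserine, had 10.4 ± 0.833 FPKM at 12 h against 40.0 ± 3.86 FPKM at 0 h (-1.88 ± 0.11, edgeR adjusted p = 3.43e-08). The largest change of this list was in the other direction: phosphatidyl-N-methylethanolamine N-methyltransferase (CsaV3_3G032790), which adds methyl groups on the way to phosphatidylcholine, had 18.2 ± 4.97 FPKM at 3 h and 179 ± 10.0 FPKM at 24 h, against 4.28 ± 1.50 FPKM at 0 h (2.09 ± 0.23 and 5.43 ± 0.27, edgeR adjusted p = 1.31e-05 and 3.59e-09). Of 19 glycerolipid acyltransferases tested, 7, 8 and 6 were higher (36.8%, 42.1% and 31.6%) and 6, 7 and 8 lower (31.6%, 36.8% and 42.1%), each share within 10 percentage points of that of all tested genes. Glycerol-3-phosphate acyltransferase 3 (CsaV3_7G001740) had 76.6 ± 6.14 FPKM at 3 h against 30.5 ± 2.18 FPKM at 0 h (1.33 ± 0.12, edgeR adjusted p = 1.86e-06). Phospholipid:diacylglycerol acyltransferase 1, which moves a fatty acid from a phospholipid to diacylglycerol, had 29.9 ± 1.70 FPKM at 12 h against 7.88 ± 0.475 FPKM at 0 h (1.97 ± 0.10, edgeR adjusted p = 8.19e-09). With 1 library left out, its log2 fold change ran from 1.92 to 2.10 at 24 h. Glycerol-3-phosphate 2-O-acyltransferase 6, known in Arabidopsis for cutin, had 3.69 ± 1.13 FPKM at 24 h against 47.6 ± 7.46 FPKM at 0 h (-3.63 ± 0.20, edgeR adjusted p = 8.61e-09).

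A further list held 53 genes of phosphate uptake, sensing and saving: SPX proteins, purple acid phosphatases, phosphate transporters, pyrophosphatases and phosphoenolpyruvate carboxylase kinases. Its pattern also took glycerol-3-phosphate transporters and nucleotide pyrophosphatases. The list was written with earlier results of these data known, so its counts and shares describe it and do not test it. Of 45 tested, 27 were higher (60.0%) and 7 lower (15.6%) at 3 h, 20 higher (44.4%) and 12 lower (26.7%) at 12 h, and 23 higher (51.1%) and 11 lower (24.4%) at 24 h. Of all tested genes 29.4%, 34.4% and 36.2% were higher and 28.3%, 33% and 37.9% lower. The median log2 fold change was 0.60, 0.24 and 0.41, against 0.00, 0.00 and -0.03 over all tested genes. At 12 h against 3 h 8 were higher (17.8%) and 20 lower (44.4%), where 27.9% and 27.6% of all tested genes were. At 24 h against 12 h 19 were higher (42.2%) and 10 lower (22.2%), where 24.5% and 27.4% were.

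The genes nearest to each of the 4 in profile were taken from 8850 described genes with at least 5 FPKM in their highest group. Distance was the root mean square difference of log2(FPKM + 1) over the 12 libraries, each gene centred on its own mean. These genes were picked for their likeness, so their values are a description. The nearest to GDPD1 was inorganic pyrophosphatase 2-like (CsaV3_7G034880), of a family that splits pyrophosphate into phosphate, at a distance of 0.34. It had 15.6 ± 0.374 FPKM at 0 h, 599 ± 23.3 at 3 h, 44.0 ± 7.72 at 12 h and 348 ± 135 at 24 h (SD, n = 3 libraries each), and thus the same high, low, high course. Its 24 h libraries, with 235, 312 and 498 FPKM, stood in the same order as those of GDPD1. The next 4 were an SPX domain-containing protein 1 gene (CsaV3_1G030190, 0.81), a gene described as ganglioside-induced differentiation-associated-protein 2 (0.87), a second SPX domain-containing protein 1 gene (CsaV3_2G002890, 0.98) and phosphoenolpyruvate carboxylase kinase 1 (1.17). SPX proteins sense inositol phosphates and with them phosphate status. The first SPX gene had 8.04 ± 1.88 FPKM at 0 h, 379 ± 5.29 at 3 h, 16.7 ± 1.05 at 12 h and 58.0 ± 28.5 at 24 h, and the second 34.9 ± 1.85, 489 ± 8.02, 25.8 ± 5.45 and 150 ± 47.9 FPKM. Of the 5 genes, 4 belong to the list of phosphate genes. That list was written with earlier results of these data known, so the count is a description and no test.

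Phospholipase D p2 and monogalactosyldiacylglycerol synthase 2 were each other's nearest gene, at a distance of 0.49, although they lie apart on chromosome 2. A myb-related protein P-like gene (CsaV3_4G001130), of a transcription factor family, was next for both (0.63 to phospholipase D p2 and 0.50 to the synthase). It had 1.31 ± 0.212 FPKM at 0 h, 18.5 ± 1.69 at 3 h, 3.32 ± 0.120 at 12 h and 1.63 ± 1.04 at 24 h. Phospholipase D p2 was then followed by transcription factor MYB1R1-like (0.67), a vestitone reductase-like gene (0.72) and the water channel gene aquaporin PIP2-1-like (0.73). The synthase was followed by purple acid phosphatase 2 (0.54), of an enzyme family that frees phosphate from organic compounds, by a further myb-related gene (CsaV3_3G015040, 0.63) and by mitochondrial chaperone BCS1-like (0.64). Purple acid phosphatase 2 had 1.97 ± 0.165 FPKM at 0 h, 26.6 ± 3.62 at 3 h, 4.46 ± 0.423 at 12 h and 4.68 ± 1.12 at 24 h, and overlaps a gene on the opposite strand. It was the one gene of the phosphate list among these.

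None of the other 3 of the 4 genes was among the 5 nearest to GDPD1. The distance of GDPD1 was 1.59 to monogalactosyldiacylglycerol synthase 2, 1.92 to phospholipase D p2 and 2.25 to GDPD6. Ranked by nearness to GDPD1 among 8850 genes, these stood at places 50, 259 and 1365. The distance is not scaled for the size of a gene's changes. GDPD6, with its small changes, was nearest to genes of other functions: protein NETWORKED 1A (0.11), a leucine-rich repeat receptor-like kinase (0.11), kinesin-like protein NACK2 (0.13), a trehalose-phosphate synthase 1-like gene (0.14) and a BAG family chaperone regulator (0.16). None of these 5 was in the lipid or phosphate lists. NETWORKED 1A had 5.21 ± 0.457 FPKM at 0 h, 10.3 ± 0.815 at 3 h, 3.43 ± 0.0442 at 12 h and 2.71 ± 0.394 at 24 h.

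**Figure D5:**
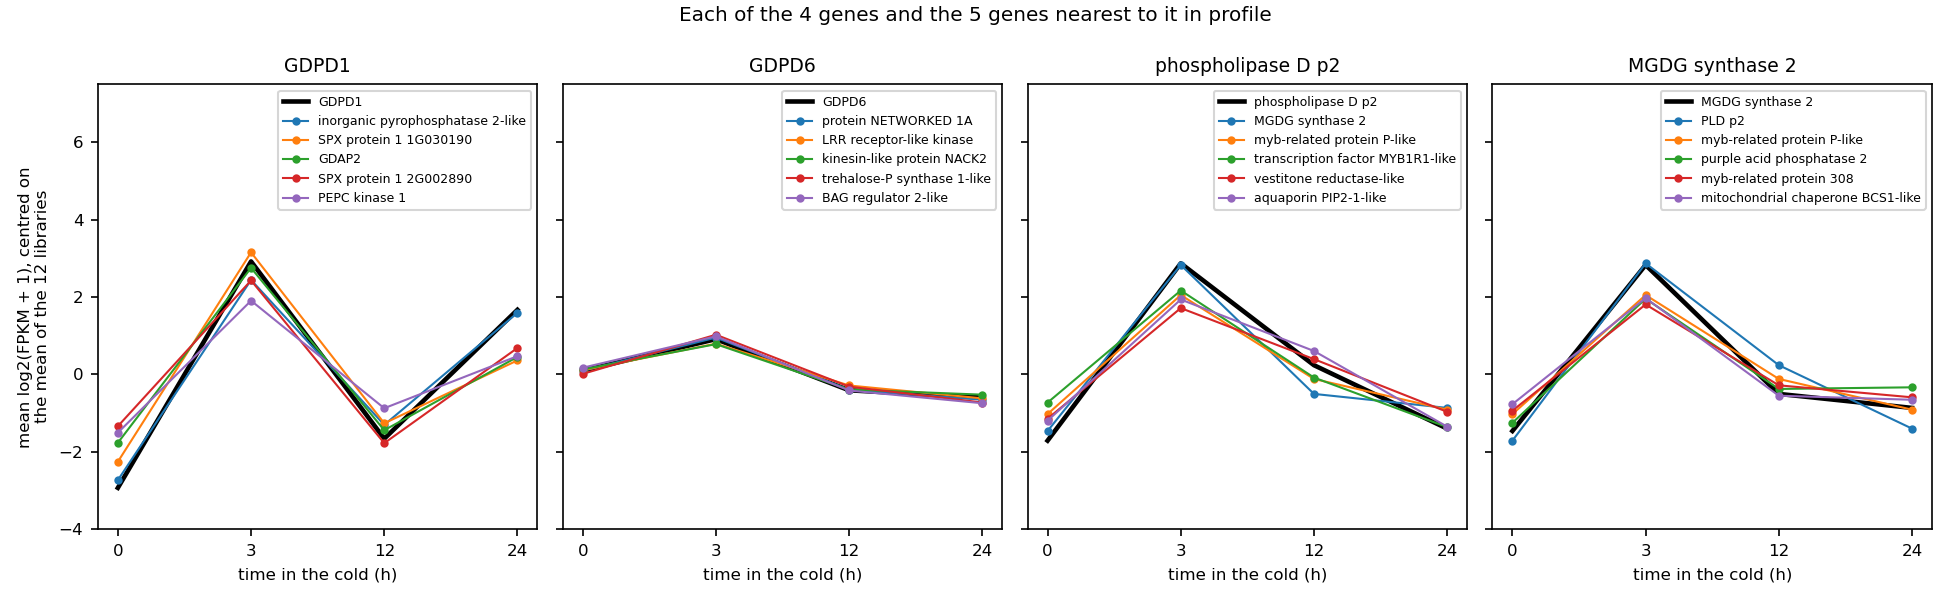
Mean log2(FPKM + 1) at each duration, centred on the gene's mean over the 12 libraries, for each of the 4 genes (thick black line) and the 5 genes nearest to it (coloured lines), against time in the cold in h. The neighbours of GDPD1 share its low level at 12 h and higher level at 24 h, those of phospholipase D p2 and monogalactosyldiacylglycerol synthase 2 stand high at 3 h and low after it, and those of GDPD6 move within a narrow range.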

How the data were processed

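The 12 libraries and their groups were taken from the sample labels. Gene-level estimated counts in the deposited table come from the authors and are whole numbers; low values lie about 3.71 units apart, so that 1 unit is less than 1 fragment. The authors' FPKM values stand beside them, per the file headers, and the placeholder of 0.0001 that stands for each of 61048 counts of 0 was read as 0. The submitters' processing notes name cutadapt 1.9 and FastQC, and the series design text names HISAT2 for mapping to a cucumber genome. Not given in the sources used here are the counting tool, annotation, genome build and strand setting, and coordinates are those of the deposited table.

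Genes that reached 1 FPKM in 3 or more libraries, 16432 genes with 99.84% of the counts, were tested with edgeR 4.0.16 in R 4.3.3: TMM scaling, 1 fit over 12 libraries, quasi-likelihood tests, two-sided, Benjamini-Hochberg adjustment over all tested genes in each of 5 comparisons, and a call at an adjusted p below 0.05. The biological coefficient of variation was 17.2%. The fit was also run on simulated counts in which few genes changed, at 3 h only. In these data many genes changed, so that run does not test the calls given here. FPKM are given as mean ± SD. The SE beside a log2 fold change is its absolute value divided by the square root of the F statistic of its quasi-likelihood test. The members and gene lists (patterns on gene descriptions) were chosen with earlier results of these data known. Named were the 4 genes, the tested genes of the GDPD, phospholipase D, galactolipid and sulfolipid lists, and the 5 nearest profiles. From each other lipid list the called gene with the largest change and at least 5 FPKM was named in each comparison with 0 h. It is shown for that comparison and may have changed at other durations as well. An SFR2 gene was named outside this rule. Whether equal replicate numbers in the titles pair libraries is not stated, and the main fit used no pairing. Over 18 pairs with the same number the correlation of deviations was -0.07 to 0.09, which does not settle whether they share an origin. Alternatives were other scalings and filters, DESeq2 1.42.0, limma 3.58.1 on log2(FPKM + 1), a replicate block, a fit of 2 groups, counts divided by the spacing, and each library left out.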

Additional observations from a re-analysis of the deposited data

How the results depend on the processing

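Counts of called genes stayed within 1.5 times under every alternative run. For the lipid genes outside the 4 the count was 65, 75, 71, 65 and 45 in the 5 comparisons (3, 12 and 24 h against 0 h, 12 h against 3 h, 24 h against 12 h), and 60 to 68, 68 to 79, 64 to 75, 58 to 66 and 41 to 52 as each library was left out. With the replicate number as a replicate block it was 66, 77, 70, 61 and 46, and over all genes 9306, 10939, 12063, 8921 and 8348, against 9481, 11069, 12188, 9127 and 8531 without it. The balance of higher and lower calls over all genes moved with the scaling. At 24 h against 0 h 5955 were higher and 6233 lower with TMM, and 6149 and 6006 with median-of-ratios scaling. At 12 h against 3 h these were 4591 and 4536 with TMM, and 4019 and 5063 under library totals. The shares of all tested genes given above are those with TMM. Of the fold changes of the 4 genes, 5 values moved by more than the pooled SD of log2 FPKM between libraries of 1 duration, and 3 of these moves were smaller than the SE of the fit: as a difference of mean log2(FPKM + 1), GDPD1 at 3 h against 0 h was 5.86 and phospholipase D p2 was 4.59 at 3 h and 1.95 at 12 h, and phospholipase D p2 at 12 h was 2.22 with log2(FPKM + 0.1) and 2.26 under library totals. No direction of the 4 turned. Of 73 called values of the 29 other lipid genes named by the stated rule, none changed sign, and 6 lost their call in at least 1 alternative. Signs turned only for differences that were not called. For the second GDPD1 gene (CsaV3_4G002900) at 24 h this was -0.0302 under library totals, -0.0106 with the filter at a mean of 5 FPKM and -0.0299 with limma, and -0.11 to 0.19 with 1 library left out. The desaturase CsaV3_4G001650 gave -0.0315 with limma at 3 h, and at 24 h -0.0311 under library totals, -0.0198 with limma, -0.0232 with counts divided by the spacing, and -0.0002 without the filter; with 1 library left out it ran from -0.83 to 0.40 at 3 h and from -0.23 to 0.28 at 24 h. Phospholipase D delta-like at 12 h ran from -0.0866 to 0.24 and non-specific phospholipase C2 at 3 h from -0.19 to 0.26. With 3 libraries a duration, and 24 h libraries that differ more, small changes at 24 h are the least certain; GDPD1 at 0 h rests on about 234 fragments a library.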
